A study of Mus musculus with 3 samples.

Results

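The mir-28, mir-151 and mir-708 family was followed in small RNA sequencing of cultured smooth muscle cells of the mouse aorta (AoSMC), which in the vessel contract and build the media. Members were chosen by name and not by level, as every row of the deposited tables for mir-28a, mir-28b, mir-28c, mir-151 (mmu-miR-151, strands miR-151-5p and miR-151-3p) or mir-708 (mmu-miR-708, strands miR-708-5p and miR-708-3p). This gave 8 of the 1295 microRNA (miR) windows and the 8 microRNA-offset RNA (moR) windows next to them, from 5 of 808 hairpins. A moR lies beside the miR on the outer side of a hairpin arm. The series held 1 group of 3 replicate libraries of primary cells from C57BL/6 mice, without treatment, harvested near confluence in medium with serum. The cells grew out of explants of several aortas, and the labels call the libraries biological replicates without saying whether cultures were separate. Thus p-values measure only the spread between these libraries, which may be technical. For edgeR that spread is estimated partly from everything tested together. Ages were not given in the sources used here.

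A microRNA hairpin is cut by Drosha and Dicer into a short duplex, of which one strand, from the 5p or the 3p arm, is usually kept by an Argonaute protein while the other decays. The retained strand finds target mRNAs mainly through its seed, bases 2 to 8. The mir-28, mir-151 and mir-708 hairpins have been traced to LINE2 repeats, an old family of mobile elements, and form a stem from copies in opposite directions. That origin is background, since the repeats were not annotated here. The host genes are known for other roles: Ptk2 encodes focal adhesion kinase, Lpp encodes a focal adhesion protein abundant in smooth muscle, and Tenm4 encodes a teneurin of the cell surface. In mice, miR-708 is known to be induced with its host gene under stress of the endoplasmic reticulum.

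RefSeq (GRCm38.p6) gave mature sequences for 5 of the 8 miRs. They are shown because the seed decides which members can be read as one target family, and because the bases in which they differ decide which reads can be assigned to one locus. Capitals mark the seed, and each sequence runs 5′ to 3′.
miR-28a-5p: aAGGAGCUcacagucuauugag
miR-708-5p: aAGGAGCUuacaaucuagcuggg
miR-28b: aGGAGCUCacaaucuauuuag
miR-28a-3p: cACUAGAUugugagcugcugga
miR-708-3p: cAACUAGAcugugagcuucuag
The other members, miR-28c, miR-151-5p and miR-151-3p, are given by name.

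On the 5p arm, miR-28a-5p and miR-708-5p shared the seed AGGAGCU, and no other mature miR of the 1738 in the RefSeq table held it. Counted from 1 at the 5′ end of miR-28a-5p, the 2 sequences were identical at 16 of 22 positions, and the first difference towards the 3′ end was C9U, followed by G13A. The annotated miR-28b starts 1 base further in, which turns its seed into GGAGCUC, and against miR-28a-5p it differed by G13A and G20U only, at 2 of 21 positions. A read that covers either position and matches without a mismatch can thus come from only one of the 2 loci.

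On the 3p arm the frame also moved by 1 base, but in the other direction, as miR-708-3p starts 1 base earlier than miR-28a-3p. miR-28a-3p and miR-708-3p shared the run UGUGAGCU, which begins at base 9 of miR-28a-3p and at base 10 of miR-708-3p, so that their seeds ACUAGAU and AACUAGA were offset by 1 base. Neither seed was found in another mature miR of the table. The same run UGUGAGCU is the complement of bases 5 to 12 of miR-28a-5p, AGCUCACA, while the longest such run between the arms of mir-708 was 5 bases. Only A-U and G-C pairs were counted, so a stretch of mir-708 that holds a G-U pair counts as a shorter run.

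Mir151, Mir28a, Mir708 and Mir28c lay in introns of protein-coding genes of the same strand (mm10, GENCODE M21). Mir151 occupies bases 73254815 to 73254882 of chromosome 15 (minus strand), in an intron of Ptk2 of the same strand and of the antisense gene 1700085D07Rik. Mir28a occupies bases 24827855 to 24827940 of chromosome 16 (plus strand), in an intron of Lpp. Mir708 occupies bases 96249424 to 96249532 of chromosome 7 (plus strand), in an intron of Tenm4. Mir28c occupies bases 53614205 to 53614279 of chromosome 15 (minus strand), in an intron of Samd12. Mir28b occupies bases 73016512 to 73016591 of chromosome 8 (plus strand). The names miR-28b and miR-28c carry no arm. By position miR-28b lies on the 5p side of its hairpin and miR-28c on the 3p side of its own.

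**Figure D1:**
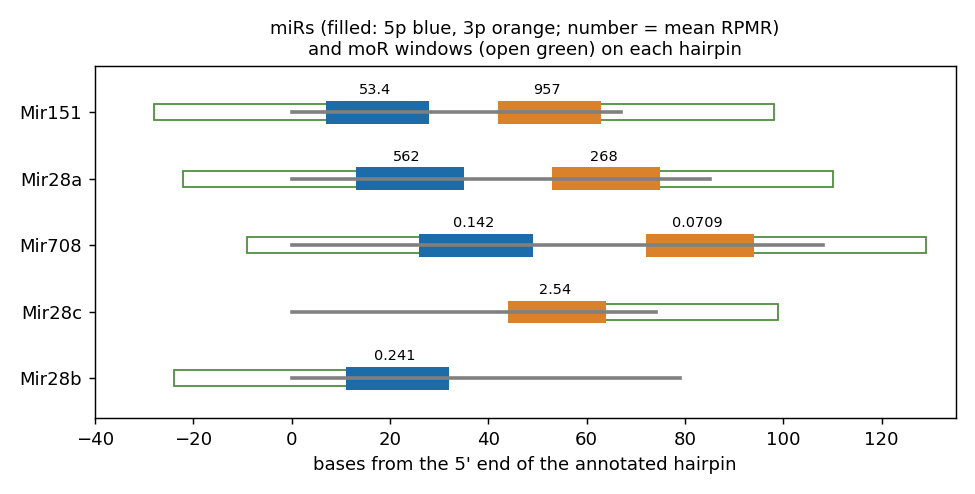
Map of the 5 hairpins, drawn from the 5′ end of each annotated hairpin (x axis, bases); grey lines are hairpins, filled boxes are miRs of the 5p arm (blue) or 3p arm (orange) with their mean RPMR, and open green boxes are the moR windows. The high values were on the 3p arm of Mir151 (957) and on both arms of Mir28a (562 and 268).

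The libraries held between 15123616 and 18636286 mapped reads, of which 73.1% to 83.0% fell in miR and moR windows. Levels are in RPMR, the reads per 1000000 window reads of the library, and 1 read equalled 0.0659 to 0.0797 RPMR. The smooth muscle markers miR-143-3p and miR-145a-5p summed to between 47412 and 57626 RPMR. Against this stood 125 to 158 RPMR for both endothelial markers, 117 to 150.6 RPMR for 5 striated muscle markers with 1 of them at 0, 11.8 to 12.5 RPMR for 2 neuronal markers with 1 of them at 0, and 0.513 to 1.12 RPMR for 5 blood markers. The 4 epithelial markers summed to between 6.93 and 7.63 RPMR, and the liver marker miR-122-5p was at 1.47 to 1.75 RPMR. Single miRs made up most of the smooth muscle, endothelial and striated muscle sums. These were miR-143-3p, miR-126a-3p and miR-206-3p, at means of 50855, 136 and 138 RPMR. The part of such cells in the levels below was not tested, and fewer cells of a type cannot be told apart from less RNA per cell.

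The family was carried by mir-151 and mir-28a. Its 8 miRs summed to 1844 ± 228 RPMR (SD, n = 3), of which miR-151-3p gave 52.1% ± 2.91, miR-28a-5p 30.3% ± 2.54, miR-28a-3p 14.5% ± 0.614 and miR-151-5p 2.93% ± 0.376 (SD, n = 3). miR-28c was low, and miR-28b and both strands of mir-708 were close to the limit of detection.

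The 3p strand of mir-151 was the most abundant member, at 879, 1060 and 933 RPMR in replicates 1, 2 and 3. Its mean of 957 ± 93.3 RPMR (SD, n = 3) ranked 62 of 1295 miR windows. The strand of the other arm, miR-151-5p, was at 53.0, 52.5 and 54.8 RPMR, a mean of 53.4 ± 1.22 RPMR (SD, n = 3) and rank 198. The libraries thus spread by 2.28% of the mean for miR-151-5p and by 9.75% for miR-151-3p.

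Next came miR-28a-5p, at 440, 631 and 616 RPMR, a mean of 562 ± 106 RPMR (SD, n = 3) and rank 81. miR-28a-3p was at 222, 296 and 286 RPMR, a mean of 268 ± 40.5 RPMR (SD, n = 3) and rank 112. Replicate 1 was lowest for both strands of mir-28a and for miR-151-3p. Both arms summed, mir-28a stood at 830 ± 147 RPMR and mir-151 at 1011 ± 92.9 RPMR (SD, n = 3). Per library the level of mir-28a was 0.710, 0.833 and 0.914 times that of mir-151, lower in 3 of 3 libraries.

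The named relatives of mir-28a were far lower. miR-28c was at 1.72, 3.35 and 2.54 RPMR, from 23.5, 42 and 38.5 reads. Counts that end in 0.5 appeared in miR-28a-5p (5994.5 and 9355.5) in the same libraries as in miR-28c, and the 2 windows together held 6018, 7953 and 9394 reads, whole in each library. The authors split a read evenly between loci that it matches, so reads were shared between these windows and the level of miR-28c is not measured on its own. miR-28b had 3, 3 and 4 reads, which was 0.220, 0.239 and 0.264 RPMR. That is at or near the 3 reads per library that a count of 0 would still allow, equal to 0.198 to 0.239 RPMR.

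The mir-708 hairpin was nearly silent in these libraries. miR-708-5p had 4 reads in replicate 1, 0 in replicate 2 and 2 in replicate 3, and miR-708-3p had 2, 0 and 1. In replicate 2, 0 of 12546339 window reads allow a level of up to 0.239 RPMR for each strand. The windows of miR-28a-5p and miR-708-5p, which share the AGGAGCU seed, held 562 ± 106 RPMR together (SD, n = 3). Nearly all of it came from miR-28a-5p, with 23261 reads against 6 of miR-708-5p over all libraries. Windows reach 3 bp beyond each miR, so reads with a shifted start and another seed may be included. Reads shared with miR-28c are counted only in part, so the level of the seed itself was not measured.

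**Figure D2:**
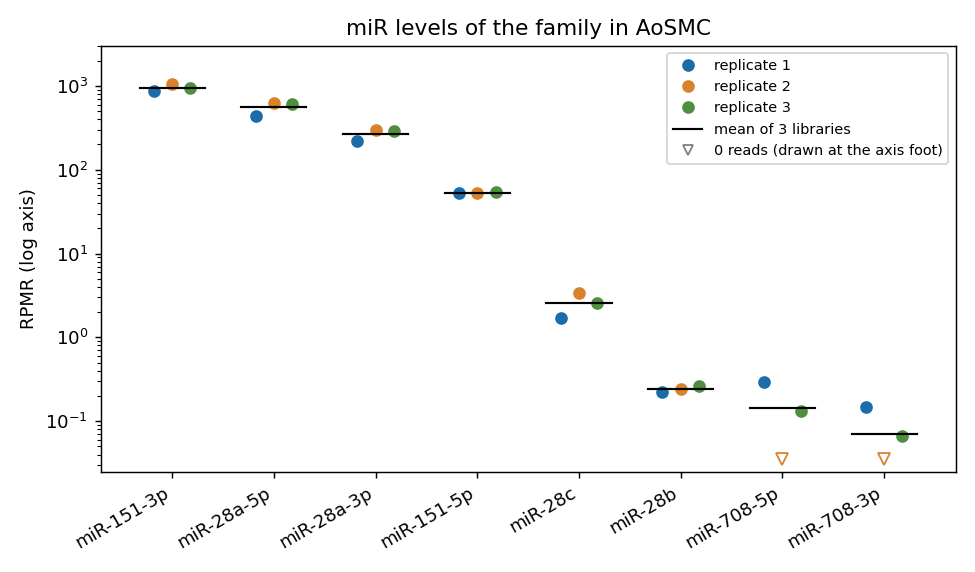
Levels of the 8 miRs in each library (y axis, RPMR on a log axis; coloured points are replicates, black lines the mean of 3 libraries, open triangles libraries with 0 reads drawn at the foot of the axis). The 4 strands of mir-151 and mir-28a lie between 52.5 and 1060 RPMR, and all other members lie at or below 3.35 RPMR.

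The order of the means was miR-151-3p, miR-28a-5p, miR-28a-3p, miR-151-5p, miR-28c, miR-28b, miR-708-5p and miR-708-3p. For the first 5 pairs of neighbours the difference in log2(RPMR + 0.1) had one sign in 3 of 3 libraries, from 0.78 ± 0.20 between miR-151-3p and miR-28a-5p to 4.39 ± 0.47 between miR-151-5p and miR-28c (SD, n = 3). By an exact permutation of signs over libraries (two-sided), p was 0.25 for each, which is the lowest that 3 libraries can reach (0.35 after Benjamini-Hochberg adjustment over 7 pairs). miR-28b and miR-708-5p changed places between libraries (0.70 ± 1.03, SD, n = 3, exact permutation p = 0.50, adjusted p = 0.50), and miR-708-5p and miR-708-3p were both at 0 in replicate 2 (0.39 ± 0.35, SD, n = 3, exact permutation p = 0.50, adjusted p = 0.50).

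To compare arm choice, the 5p and 3p miR of each hairpin were set against each other in the same libraries. By reads, mir-151 and mir-28a leaned to opposite arms. mir-151 had mostly reads of its 3p strand and a measurable 5p strand, while mir-28a had more reads of its 5p strand and many of its 3p strand. Whether both strands of a hairpin enter a library equally well was not tested. The 9 reads of mir-708 fell on both arms and were too few to place it.

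For mir-151, 722 reads of the 5p miR stood against 11976 of the 3p miR in replicate 1, 659 against 13303 in replicate 2 and 832 against 14155 in replicate 3. The 5p share was 5.69% (95% exact Clopper-Pearson interval 5.29% to 6.10%), 4.72% (4.37% to 5.08%) and 5.55% (5.19% to 5.93%). Replicate 2 lay lowest, outside the intervals of the others, and all libraries stayed far on the 3p side. There were between 16.6 and 20.2 reads of miR-151-3p for each read of miR-151-5p. The log2 ratio of 5p over 3p was -4.16 ± 0.14 (SE, edgeR quasi-likelihood test, Benjamini-Hochberg adjusted p = 7.4e-13).

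For mir-28a, the 5p share was 66.5%, 68.1% and 68.3% in the order of the replicates. The 95% exact intervals of 65.5% to 67.5%, 67.2% to 68.9% and 67.5% to 69.1% left replicate 1 a little lower. The shares came from 5994.5 against 3020, 7911 against 3714 and 9355.5 against 4343 reads. miR-28a-5p was thus 1.98, 2.13 and 2.15 times miR-28a-3p. The log2 ratio of 5p over 3p was 1.06 ± 0.13 (SE, edgeR adjusted p = 1.6e-06), but it was 0.04 ± 0.19 (SE, edgeR adjusted p = 0.82) when TMM factors, which centre the 5p columns of all hairpins on the 3p columns, were used. TMM moved the median log2 ratio of all hairpins by -0.99 and DESeq2's size factors moved it by -0.22. As both arms are read in 1 library, they share its depth without such scaling, but how well each strand was captured was not tested. Relative to the median hairpin, at -0.27 with window totals, mir-28a lay on the 5p side and mir-151 on the 3p side.

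mir-708 had 6 reads of the 5p miR and 3 of the 3p miR, a 5p share of 66.7% with a 95% exact interval of 29.9% to 92.5%. The interval covers equal reads of both arms as well as the share of mir-28a, and it does not reach the share of mir-151. With 9 reads it was below the minimum of 10 reads and was not tested. Intervals cover counting error only. The reads carried no molecular identifiers, so copies of a molecule may be counted as separate reads, which the intervals do not cover.

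**Figure D3:**
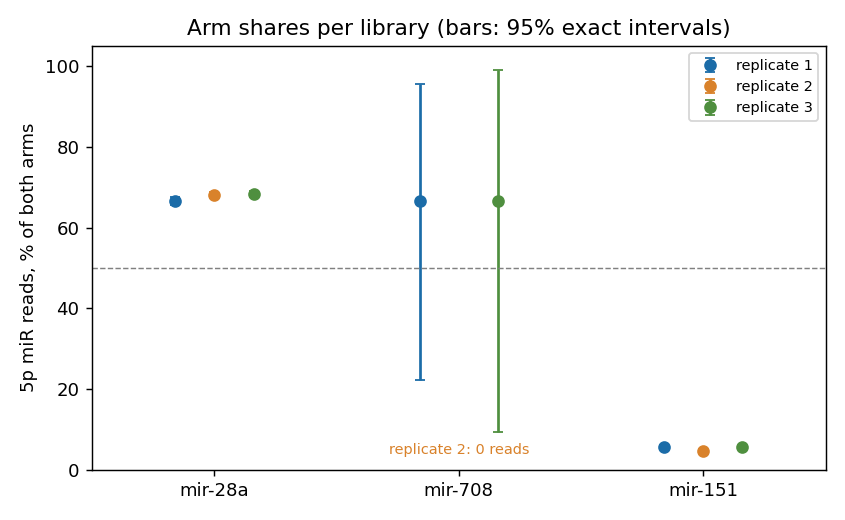
The 5p share of the miR reads of each hairpin (y axis, percent of the reads of both arms; points are libraries, bars are 95% exact intervals, the dashed line marks equal arms). mir-28a lies between 66.5% and 68.3%, mir-151 between 4.72% and 5.69%, and mir-708 has wide intervals in 2 libraries and no reads in replicate 2.

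The difference in log2 ratio between mir-28a and mir-151 was 5.04, 5.43 and 5.20 in replicates 1, 2 and 3, a mean of 5.22 ± 0.19 (SD, n = 3). It had the same sign in 3 of 3 libraries and was many times the spread between them. The same exact permutation of signs (two-sided) gave p = 0.25, its lower limit with this number of libraries.

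A called arm was the rule and not particular to the family. Of 433 hairpins with at least 10 reads, 88.2% were called in either direction, 42.7% with more 5p miR as for mir-28a and 45.5% with more 3p miR as for mir-151. The 433 are not all distinct. Some held the same levels, such as Mir466c-1 and Mir466c-2, or the same levels on exchanged arms, such as Mir1a-2 and Mir1b. These shares and the ranks below thus include repeated values. In size, the imbalance of mir-151 was near that of the median hairpin and that of mir-28a was smaller than most. The median absolute log2 ratio was 4.88, and a smaller one than that of mir-28a was found for 11.5% of the hairpins and than that of mir-151 for 44.8%. By the level of the less abundant arm, miR-28a-3p ranked 14 and miR-151-5p ranked 43 of the 433 hairpins. Both arms of mir-28a and mir-151 were thus measured well above the floor, while the levels of mir-708 did not allow a comparison of its arms. Read levels do not measure the stability of a strand.

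**Figure D4:**
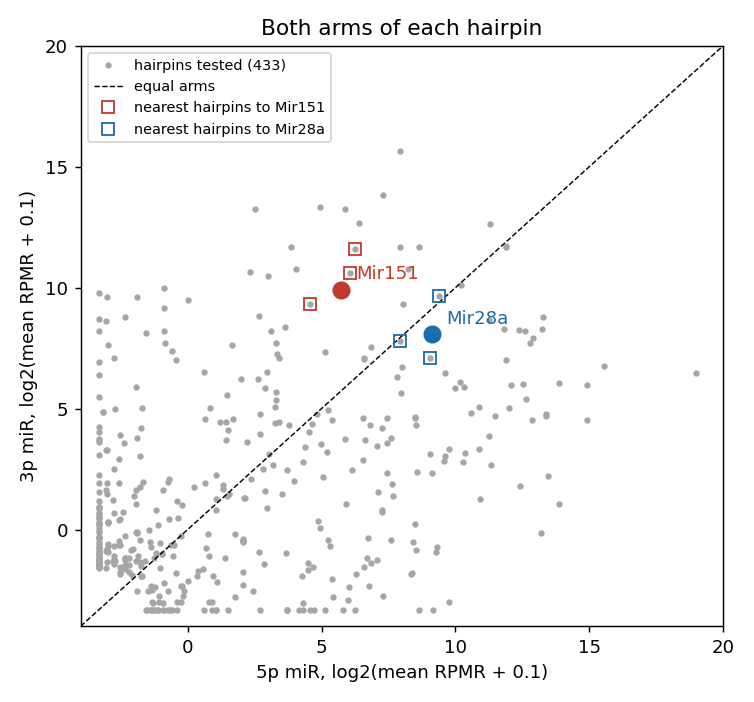
Mean level of the 3p miR (y axis) against the 5p miR (x axis) of the 433 hairpins tested, both as log2(mean RPMR + 0.1); grey points are hairpins, filled points are Mir151 and Mir28a, open squares are their 3 nearest hairpins and the dashed line marks equal arms. Mir151 lies above the line and Mir28a below it, each among hairpins with both strands present.

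The hairpins most like each member were taken by distance in the mean log2(RPMR + 0.1) of both arms over 3 libraries. For mir-151 they were Mir221 (67.4 RPMR of the 5p miR and 1576 of the 3p miR, distance 0.78), Mir148b (23.5 and 647 RPMR, distance 1.31) and Mir152 (76.5 and 3073 RPMR, distance 1.76). For mir-28a they were Mir16-1 (531 and 136 RPMR, distance 0.97, with the 5p reads split between it and the identical strand of Mir16-2), Mir106b (243 and 220 RPMR, distance 1.23) and Mir322 (677 and 809 RPMR, distance 1.61). Mir16-1 was called with more 5p miR like mir-28a, while Mir106b and Mir322 were not called (edgeR adjusted p = 0.34 and 0.063). For mir-708 they were Mir301b, Mir6992 and Mir7040, with between 2 and 5 reads on each arm.

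Other hairpins traced to LINE2 or the related MIR repeats were counted from a list of 10 names. Of these, 6 could be tested, and 2 were called with more 5p miR and 4 with more 3p miR. Their median absolute log2 ratio was 6.78, and it was 3.79 over the 4 left without Mir374b and Mir374c, a choice made after seeing the data, against 4.88 over all hairpins tested. Mir345 had 9.70 RPMR of the 5p miR and 40.7 of the 3p miR, and Mir378a had 8.44 and 298 RPMR. Mir421 had 0.161 RPMR of the 5p miR and 59.9 of the 3p miR. Mir374b, at 570 RPMR of the 5p miR and with no row for the 3p miR, which was taken as 0, and Mir374c, at 0.447 and 569 RPMR, lie on opposite strands of one stretch of chromosome X. Whether reads were counted by strand is not given in the sources used here, and without strand the reads of such a pair cannot be told apart. Elsewhere in the series, Mir1a-2 (0.641 and 0.189 RPMR of the 5p and 3p miR) and Mir1b held equal levels on exchanged arms. The 5p miR of Mir136 and the 3p miR of Mir3071 were both at 10.6 RPMR. The same reads may thus be counted in both hairpins, and the calls of Mir374b and Mir374c cannot be taken as 2 separate results. Among those not tested, mir-378c had 190 RPMR of its only annotated strand. The other names of the list did not reach 10 RPMR on any arm.

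The abundant members left almost no moR. Over all libraries the moR windows of miR-28a-5p, miR-151-5p, miR-28b, miR-28c and both strands of mir-708 had 0 reads. The moR window beside miR-151-3p had 1 read, in replicate 3, and the window beside miR-28a-3p had 1 read, in replicate 2.

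Beside miR-151-3p, the ratio of miR to moR reads was 39434 (95% exact interval 7077 to 1557599), and beside miR-28a-3p it was 11077 (1988 to 437557). These pairs passed the minimum on reads through the miR alone, so nothing is read from their test. Over the series edgeR called 97.5% of the 243 moRs tested in either direction and 91.8% lower than the miR. With the floor set at 3 reads for all libraries together, the moR was at least 7754-fold lower than miR-28a-5p and at least 738-fold lower than miR-151-5p. For miR-28c the bound was 34.7-fold and for miR-28b 3.33-fold, and at mir-708 both kinds of window were too low for a bound.

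Few moR reads beside an abundant miR were common in these cells. Of the 1295 moR windows, 22.2% had a read at all. Among the 202 miRs at 50 RPMR or more, a level set after the values were seen so as to include all 4 strands of mir-28a and mir-151, 47.0% had 0 or 1 moR read, and 35.1% had 0. No hairpin of the family reached the 10 moR reads needed to compare the moRs of its arms, a comparison that 81 hairpins of the series allowed.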

How the data were processed

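Small RNA of 3 AoSMC libraries was sequenced as single reads of 75 bases. The authors trimmed adaptors, aligned inserts of more than 13 bases to mm10 with Bowtie, whose version is not given in the sources used here, without mismatches at up to 5 places, and split reads near several hairpins evenly. They deposited expected counts per window, for miRs as miRBase coordinates widened by 3 bp and for moRs reaching 35 bp outward. They also deposited RPMR, an RPM value per 1000000 reads in all windows, and notes with library totals. Windows without a row in the count table were taken as 0.

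Window starts were read as 1-based, since after removing 3 bases from each side both ends equalled the RefSeq mature miR for 1670 of 1685 matched miRs. Sample numbers in the column names gave the replicate.

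Counts were rounded and tested with edgeR 4.0.16 (R 4.3.3; quasi-likelihood test, window total as library size, library as block, since both values come from 1 library), over all pairs with at least 10 reads and, for moRs, at least 1 moR read. A call needed a p under 0.05 after Benjamini-Hochberg adjustment. Of several miRs on an arm, the outermost was taken. The tests were tested on simulated data. DESeq2 1.42.0 and limma 3.58.1 were alternatives, as were TMM, other read minimums, no block, leaving out each library, other denominators and, for shares, summed miR and moR reads. Intervals and permutation tests used SciPy 1.17.1. The named items are all members, the 3 nearest hairpins, seed relatives and those above 10 RPMR of a list of repeat-derived hairpins. Further hairpins are named only as examples of equal levels. Members and lists were chosen with earlier results of these data known. The annotation around Mir28b is not reported here.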

Additional observations from a re-analysis of the deposited data

How the results depend on the processing

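The direction of both arm comparisons was kept under every alternative run, and the call as well, except that the call for mir-28a was lost with TMM factors (log2 ratio 0.045, edgeR adjusted p = 0.82), which by construction centre the 5p on the 3p columns. Without one library, the log2 ratio of 5p over 3p ranged from -4.21 to -4.07 for mir-151 and from 1.04 to 1.10 for mir-28a. Without the replicate block it was -4.16 and 1.07. The size of the adjusted p depended on the method: for mir-151 it was 6.5e-06 with limma and 9.1e-103 with edgeR and TMM factors. The 5p share ranged from 5.14% to 5.62% for mir-151 and from 67.3% to 68.2% for mir-28a, and adding the miR-28c reads to miR-28a-5p, an alternative chosen after seeing the data, moved the latter by less than the spread between libraries. The difference between both hairpins was 5.43 in replicate 2 alone.

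The level moved with the denominator while the order of the members was kept. With mapped reads as the denominator, miR-151-3p was at 762, miR-28a-5p at 449.96, miR-28a-3p at 214, miR-151-5p at 42.4 and miR-28b at 0.192 reads per 1000000 of that denominator. Without mir-21a in the denominator they were at 1995, 1175, 559, 111 and 0.501, and miR-28c at 5.33. Without one library, miR-708-5p ranged from 0.0659 to 0.213 RPMR and miR-708-3p from 0.0329 to 0.106 RPMR.

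Over the whole series, 104 moRs with TMM and 99 with DESeq2 were called lower than their miR, against 223. These scalings moved the median log2 ratio of moR over miR by 8.20 and 8.21. The fitted log2 ratio was -14.81 for miR-151-3p and -12.98 for miR-28a-3p, against -6.94 and -5.11 with TMM and -6.78 and -4.94 with DESeq2. For 5p against 3p moRs, 66 hairpins were called 5p higher and 9 called 3p higher. The 5p calls were 29 with TMM, 21 with DESeq2 and 42 with at least 30 reads. The 3p calls were 12 with TMM, 10 with DESeq2 and 4 with at least 30 reads. Without one library the 5p calls ranged from 38 to 55 and the 3p calls from 3 to 5. Depth limits the statements on mir-708, miR-28b and all moRs of the family.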

Other observations

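Replicate 1 was low for mir-28a beyond most other miRs. Its level relative to the mean of replicates 2 and 3 was 0.705 for miR-28a-5p and 0.761 for miR-28a-3p, against a median of 1.02 over 497 miRs with at least 10 reads in each library. A lower ratio was found for 7.65% and 13.7% of these miRs. The ratio was 0.882 for miR-151-3p and 0.987 for miR-151-5p. Both strands of mir-28a were thus low in the same library while their shares differed little. Replicate 1 also had the lowest part of its mapped reads in miR and moR windows, at 73.1% against 83.0% and 81.9%, whose part in this was not tested.

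The strands of mir-28a and of mir-708 begin with A on the 5p arm and with C on the 3p arm. Among 308 hairpins with a called arm and both mature sequences in RefSeq, the higher strand began with U in 58.8% and with A in 21.8%. The lower strand began with U in 18.5%, with A in 34.7% and with C in 29.5%, so A was more frequent on the lower strand. A higher strand with A beside a lower strand with C, as in mir-28a, was found in 17 hairpins, or 5.52%. This is a description across hairpins, which are not independent replicates.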
